A study of Mus musculus with 24 samples.

Results

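Mbp, Prx, Pmp22, Mag, Sox10 and S100b are marker genes of Schwann cells and of the myelin those cells make. They were listed as a gauge of how much nerve each muscle sample holds. The identifiers in the count files were matched to GENCODE gene symbols, which found all 6 genes among the 55487 identifiers listed. Schwann cells are the glia of peripheral nerves: in muscle they wrap the larger motor and sensory axons in myelin, ensheathe thin axons without it and cap the neuromuscular junction. Myelin is a stack of Schwann cell membrane held together by a small set of abundant proteins, and the transcription factors SOX10 and EGR2 are known to switch on their genes. Because nerve runs through muscle in discrete branches, a piece of dissected muscle can hold more or less of it.

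The study applied photobiomodulation therapy (PBMT), near-infrared light at 830 nm, to the lower limb of mice and sequenced RNA of the tibialis anterior muscle. All 24 mice were wild-type C57BL/6J males of 5 to 7 weeks, with 6 mice in each of 4 groups. Sedentary PBMT mice were shaved, depilated, anesthetized and given light for 20 min at 25 mW/cm2 (30 J/cm2), and muscle was taken 24 h later, while sedentary control mice were also shaved and kept under anesthesia, without light. Fatigued PBMT and fatigued control mice had the same treatments and then, 24 h later, ran on a treadmill to exhaustion before the muscle was taken. Sedentary and fatigued mice were sequenced as separate projects, so exercise and sequencing project cannot be told apart.

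The total count per mouse ran from 43271093 to 46904076 in sedentary control, from 46327516 to 52775844 in sedentary PBMT, from 56792327 to 68726155 in fatigued control and from 53122528 to 68566029 in fatigued PBMT muscle. The libraries were those of skeletal muscle: 10 muscle fiber genes, led by the fast myosin Myh4, summed to between 113000 and 182000 CPM (counts scaled to 1e6 per mouse) in every mouse. Sedentary control 4 stood apart within its group, with a muscle fiber sum of 164000 CPM against 113000 to 128000 CPM in the other 5 mice. It also differed across genes as a whole. The chi-square per degree of freedom between its counts and those of each other sedentary control mouse was 432.79 to 465.6. Pairs of the other sedentary control mice had 13.5 to 74.21. The cause was not tested. Fatigued PBMT 5 also stood apart, with 4620 CPM of fibroblast genes against 1090 to 2350 CPM in the rest of its group.

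All 6 genes are protein-coding, and on the GRCm38 assembly they lie on 5 chromosomes. Mbp (ENSMUSG00000041607) lies on the plus strand at chr18:82475146-82585637. Prx (ENSMUSG00000053198) lies on the plus strand at chr7:27499324-27520214, and Mag (ENSMUSG00000036634) on the minus strand of the same chromosome at chr7:30899176-30914873. Pmp22 (ENSMUSG00000018217) lies on the plus strand at chr11:63128982-63159547, and S100b (ENSMUSG00000033208) on the plus strand at chr10:76253853-76261159. Sox10 (ENSMUSG00000033006) lies on the minus strand at chr15:79154908-79165240. Prx shares exon positions with an antisense gene, Gm15541, which had no more than 12 counts in any mouse.

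Every gene was counted in every mouse, and the levels spanned a wide range. Levels of different genes were compared as CPM per kilobase of merged exon (RPKM; mean ± SD over n = 24 mice). Pmp22, a membrane protein of compact myelin, was highest at 15.4 ± 5.37 RPKM. Mbp, the protein that holds the inner faces of compact myelin together, followed at 2.46 ± 1.19 RPKM, and Prx, a scaffold at the outer Schwann cell membrane, at 1.95 ± 0.757 RPKM. S100b, a calcium-binding protein, had 0.712 ± 0.315 RPKM and the transcription factor gene Sox10 0.413 ± 0.175 RPKM. Mag, an adhesion protein at the innermost myelin membrane, was lowest at 0.116 ± 0.0553 RPKM. The neighbours Mbp and Prx differed by less than their spread, although Mbp was above Prx in 21 of 24 mice. S100b and Sox10 also differed by less than the larger spread, with S100b above Sox10 in 22 of 24 mice. The other neighbouring pairs kept their order in 24 of 24 mice. The raw counts behind these levels were 1018 to 4555 for Pmp22 and 508 to 3071 for Mbp, but only 7 to 66 for Mag, 33 to 163 for Sox10 and 22 to 152 for S100b, so Mag is the least precise of the 6 genes.

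Compact myelin was represented by Mbp and Pmp22. Mbp, without which compact myelin fails to form in the central nervous system, had 11.1, 18.5 and 30.7 CPM as its lowest, median and highest value in sedentary control mice and 11.1, 20.7 and 44.5 CPM in sedentary PBMT mice. In fatigued control mice Mbp had 7.74, 19.6 and 44.8 CPM, and in fatigued PBMT mice 12.2, 16.9 and 23.5 CPM. The highest Mbp values belonged to fatigued control 1, sedentary PBMT 6 and fatigued control 6, the lowest to fatigued control 3, and all 4 groups overlapped. Pmp22, the gene whose duplication underlies the commonest inherited demyelinating neuropathy, had 23.3, 32.2 and 46.3 CPM in sedentary control mice and 21.1, 34 and 63.2 CPM in sedentary PBMT mice. It had 25.2, 37.0 and 66.5 CPM in fatigued control mice and 24, 36.3 and 53.8 CPM in fatigued PBMT mice. The same 3 mice led in Pmp22, sedentary PBMT 1 was lowest, and the groups overlapped again.

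The membranes outside compact myelin were represented by Prx and Mag. Prx, which links the outer Schwann cell membrane to the dystroglycan complex through Drp2, had 5.86, 10.7 and 13.2 CPM in sedentary control mice and 6.69, 10.0 and 19.8 CPM in sedentary PBMT mice. It had 6.08, 11.1 and 21.3 CPM in fatigued control mice and 6.77, 10.1 and 12.8 CPM in fatigued PBMT mice. The mice with the most Mbp also had the most Prx, in the same order of rank, and the groups overlapped. Mag, which binds the axon surface, had 0.154, 0.385 and 0.746 CPM in sedentary control mice and 0.26, 0.341 and 0.869 CPM in sedentary PBMT mice. It had 0.286, 0.567 and 0.963 CPM in fatigued control mice and 0.28, 0.491 and 0.858 CPM in fatigued PBMT mice. Fatigued control 1 and sedentary PBMT 6 were again highest, fatigued PBMT 1 came next, sedentary control 6 was lowest, and the groups overlapped.

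Schwann cell identity was represented by Sox10 and S100b. Sox10, needed at every step of the Schwann cell lineage, had 0.709, 0.867 and 1.65 CPM in sedentary control mice and 0.781, 0.959 and 2.03 CPM in sedentary PBMT mice. It had 0.945, 1.53 and 2.07 CPM in fatigued control mice and 0.613, 1.43 and 2.5 CPM in fatigued PBMT mice. Fatigued PBMT 5 was highest in Sox10, ahead of fatigued control 1 and sedentary PBMT 6, fatigued PBMT 2 was lowest, and the groups overlapped. S100b, present in myelinating and non-myelinating Schwann cells and also in some adipocytes, had 0.615, 0.945 and 1.72 CPM in sedentary control mice and 0.433, 0.918 and 1.48 CPM in sedentary PBMT mice. It had 0.556, 1.13 and 2.22 CPM in fatigued control mice and 0.508, 0.884 and 1.29 CPM in fatigued PBMT mice. Fatigued control 1 and fatigued control 6 were highest in S100b, sedentary PBMT 4 was lowest, and the groups overlapped.

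**Figure D1:**
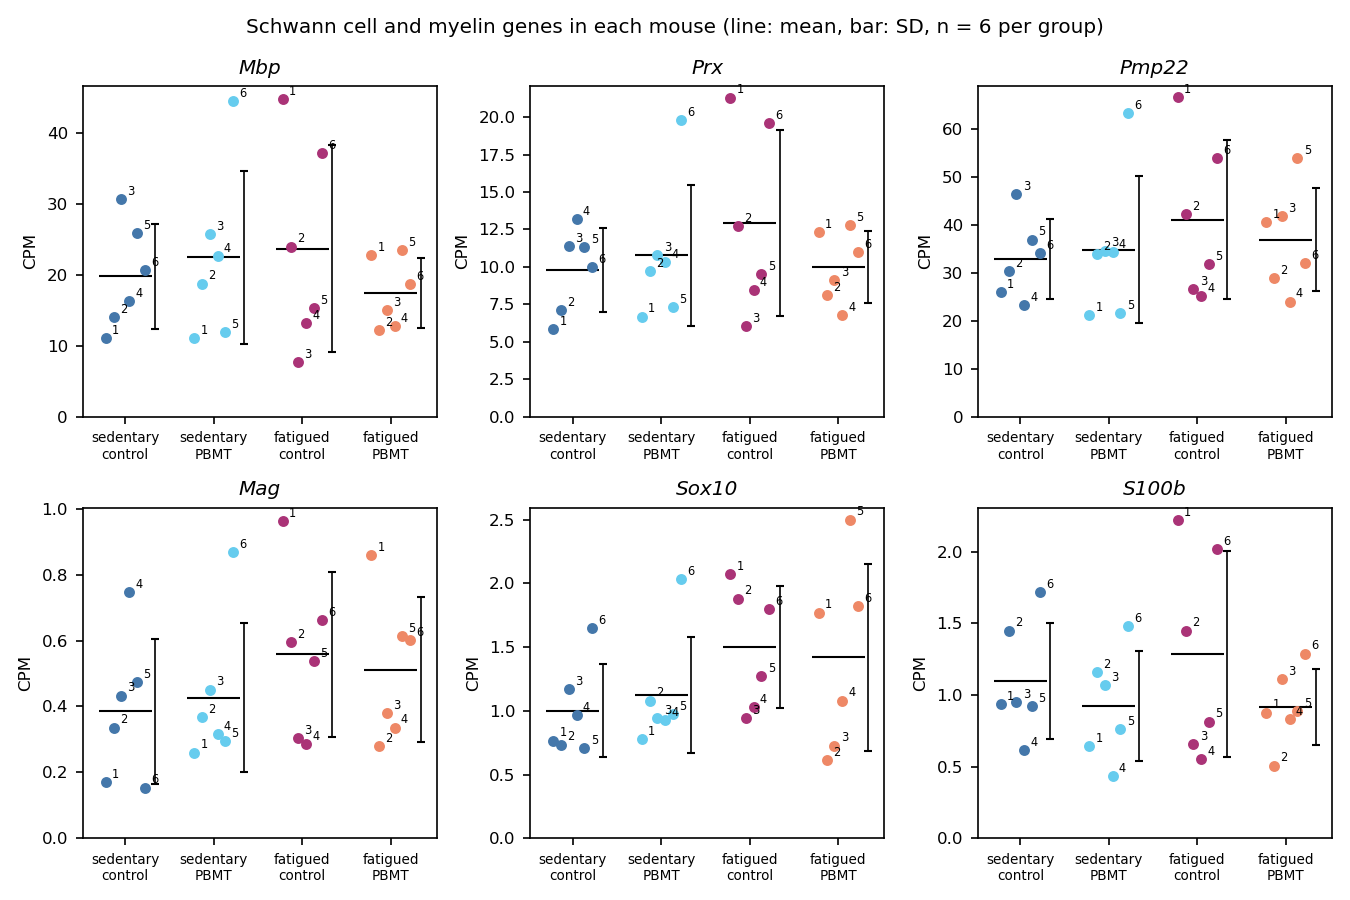
CPM of each gene in each mouse, by group, with the replicate number beside each point, the group mean as a line and the SD as a bar (n = 6 mice per group). Fatigued control 1 and sedentary PBMT 6 lie far above most mice of their groups in most panels, and the 4 groups overlap in every panel.

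The first comparison asked whether light alone shifted these genes in resting muscle. None of the 6 genes passed the threshold between sedentary PBMT and sedentary control mice, and the mice of both groups were interleaved. The log2 fold changes of 5 genes were slightly positive, from 0.09 for Pmp22 to 0.19 for Mbp, and that of S100b was -0.24. In bulk RNA, fewer cells of a type and less RNA per cell cannot be told apart, so a level of these genes reads both together.

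In numbers, 0 of the 6 genes passed an adjusted p of 0.05 in edgeR, where 0.0282% of the 14177 genes tested did, and 0 had an unadjusted p under 0.05, where 7.63% did. The DESeq2 test also called 0 of the 6, and 60 of all genes. The 4 genes called by edgeR among all those tested were the immediate-early gene Egr1, the matrix gene Ccn1 and Cited2, which were higher, and Nfil3, which was lower; they were named after their values were seen. The 95% interval of the log2 fold change ran from -0.55 to 0.93 for Mbp (adjusted p = 0.886), with 4 of 6 PBMT mice above the control median. Above it were 5 of 6 for Sox10, 4 for Pmp22, 3 for S100b and only 2 for Prx and for Mag. The interval ran from -0.39 to 0.69 for Prx, from -0.44 to 0.62 for Pmp22 and from -0.67 to 1.00 for Mag. For the identity genes it ran from -0.39 to 0.75 for Sox10 and from -0.87 to 0.39 for S100b (adjusted p = 0.830). The median log2 fold change over the 6 genes was 0.155, against -0.00186 over all genes tested. The positive signs turned with single mice left out. Without sedentary PBMT 6 the log2 fold changes of Mbp, Prx, Pmp22, Mag and Sox10 were -0.12, -0.12, -0.17, -0.18 and -0.08. Without sedentary control 6 that of Mag was -0.004 and that of S100b -0.08. The sign of S100b stayed negative with any 1 mouse left out, from -0.43 to -0.08.

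The second comparison asked whether light given before a fatiguing run shifted these genes in the exercised muscle. All 6 genes had a lower fitted level in fatigued PBMT than in fatigued control mice, and none of these differences was larger than the spread between mice. The log2 fold change was -0.44 for Mbp and -0.37 for Prx, while S100b had -0.48, Pmp22 -0.16, Mag -0.13 and Sox10 -0.07. The fatigued control group held both the highest and the lowest Mbp of all 24 mice, and the fatigued PBMT values fell inside that range.

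In edgeR 0 of the 6 genes passed the adjusted threshold, where 0.0% of the 14574 genes tested did, and 0 had an unadjusted p under 0.05, where 1.58% did. The DESeq2 test called 0 of the 6, and among all genes it called Trp63 and Dusp2, which were named after their values were seen. The 95% interval ran from -1.28 to 0.41 for Mbp, with 2 of 6 PBMT mice above the control median, and from -1.003 to 0.27 for Prx, also with 2 of 6. It ran from -1.23 to 0.27 for S100b, with 1 of 6 PBMT mice above the control median, while Pmp22, Mag and Sox10 each had 3 of 6. Every adjusted p was 0.9998. The median log2 fold change over the 6 genes was -0.261, against 0.00406 over all genes tested. Without fatigued control 1 the log2 fold change was -0.15 for Mbp, -0.16 for Prx, -0.25 for S100b, 0.04 for Pmp22, 0.10 for Mag and 0.04 for Sox10, and that of Sox10 was 0.08 without fatigued PBMT 2 and 0.06 without fatigued PBMT 3.

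Whether light acted differently in resting and exercised muscle was tested as a difference between the PBMT effects. The difference was negative for all 6 genes, largest for Mbp at -0.62 and Prx at -0.50, and within the spread between mice for each. It was -0.28 for Mag, -0.25 for Sox10, -0.24 for Pmp22 and -0.23 for S100b on the log2 scale. In edgeR 0 of the 6 passed, where 0.00662% of the 15108 genes tested did, and 0 had an unadjusted p under 0.05, where 4.4% did. DESeq2 and limma voom also called 0 of the 6. The 1 gene called was Nfil3, named after its values were seen. The 95% interval ran from -1.76 to 0.52 for Mbp (adjusted p = 0.946) and from -1.37 to 0.36 for Prx. The median over the 6 genes was -0.263, against 0.0173 over all genes tested. Without sedentary PBMT 6 the difference was -0.31 for Mbp, -0.25 for Prx, 0.01 for Pmp22, 0.05 for Mag and -0.0008 for Sox10, and without fatigued control 1 it was -0.005 for S100b.

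Fatigued and sedentary mice were set side by side to place the 4 groups on one scale. In control mice all 6 genes had a positive log2 fold change in fatigued over sedentary muscle and none passed the threshold. Sox10 came nearest, with all 6 fatigued control mice above the sedentary control median and 3 of them above the highest sedentary control mouse. In PBMT mice the same genes were split, with Sox10, Mag and Pmp22 positive and Mbp, Prx and S100b negative. These comparisons share no mouse with each other, and each shares groups with the PBMT comparisons.

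In edgeR 0 of the 6 genes passed in control mice, where 18.6% of the 15108 genes tested passed, and 0 of the 6 passed in PBMT mice, where 26.8% passed. The unadjusted p was above 0.05 for all 6 genes in both, where 32.2% and 37.6% of all genes were under it. The DESeq2 test called 0 of the 6 in both, and 3221 and 4314 of all genes. In control mice the log2 fold change of Sox10 was 0.58 (95% interval -0.06 to 1.23, adjusted p = 0.205), that of Mag 0.53 (-0.26 to 1.33) and that of Prx 0.40 (-0.21 to 1.01). Pmp22 had 0.32, Mbp 0.26 and S100b 0.22. In PBMT mice the log2 fold change of Sox10 was 0.34 (-0.31 to 0.98), that of Mbp -0.36 (-1.17 to 0.45) and that of S100b -0.01 (-0.71 to 0.69). Mag had 0.26, Pmp22 0.08 and Prx -0.11. The median over the 6 genes was 0.361 in control mice and 0.0366 in PBMT mice, against -0.0115 and 0.0021 over all genes tested. Without fatigued control 1, Mbp had -0.02, S100b -0.01, Prx 0.20, Pmp22 0.13 and Mag 0.30 in control mice, and without sedentary control 4 Mag had 0.83. In PBMT mice, without sedentary PBMT 6, Mbp had -0.04, Sox10 0.60 and Mag 0.60, while Sox10 had 0.09 without fatigued PBMT 5 and Mag 0.06 without fatigued PBMT 1. The sign turned in PBMT mice for Prx without sedentary PBMT 6, for Pmp22 without sedentary PBMT 1, sedentary PBMT 5 or fatigued PBMT 5, and for S100b without any 1 of sedentary PBMT 2, 3 and 6 and fatigued PBMT 1, 2 and 4.

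Differences between mice of the same group were large beside those between groups. The 6 genes together summed to between 40.7 and 138 CPM, a 3.39-fold range, and single genes ranged from 3.14-fold for Pmp22 to 6.24-fold for Mag over the 24 mice. Fatigued control 1 ranked first in 5 of the 6 genes and second in Sox10, and sedentary PBMT 6 ranked between 2 and 4 in each. At the other end, sedentary PBMT 1 ranked 19 or lower in all 6 genes. The SD of log2 CPM around the group means was 0.696 for Mbp, 0.533 for Prx and 0.489 for Pmp22, against a median of 0.232 over the 15108 genes tested. Among the 1000 genes nearest in level, Mbp stood at percentile 99.6, Pmp22 at 98.2 and Prx at 98.1. The fainter genes stood lower, with S100b at 88.7, Sox10 at 85.4 and Mag at 71.9.

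The genes moved together from mouse to mouse. After each group's mean was subtracted from log2 CPM, mice high in one gene tended to be high in the others. The pairs among Mbp, Prx and Pmp22 were the tightest, with r from 0.833 to 0.941. Pairs with S100b were looser, with a median r of 0.597 against 0.713 for the pairs without it. Looseness was not particular to S100b: Mag and Sox10 had r = 0.549, Pmp22 and Mag 0.619 and Pmp22 and Sox10 0.64. Mag, Sox10 and S100b are also the genes with the lowest counts. Within fatigued mice S100b had r from 0.625 with Sox10 to 0.846 with Mbp. Mbp and Prx had a Pearson r of 0.941 over 24 mice (Spearman rho 0.91), with a two-sided permutation p of 1e-05, the smallest these permutations can give, and an adjusted p of 5e-05 over 15 pairs. Mbp and Pmp22 had r = 0.909 (rho 0.915), again with the smallest permutation p. Prx and Mag, both outside compact myelin, had r = 0.822 (rho 0.869, permutation p = 3e-05, adjusted p = 0.000112). The identity gene Sox10 followed Mbp with r = 0.696 (rho 0.687, permutation p = 8e-05, adjusted p = 0.00024).

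In all, 14 of the 15 pairs passed an adjusted permutation p of 0.05 by Pearson r and 14 by Spearman rho. The 10 pairs without S100b had r from 0.549 to 0.941, and all 10 passed. The 5 pairs with S100b had r from 0.372 to 0.655, and 4 passed. The exception was Mag with S100b (r = 0.372, rho 0.39, permutation p = 0.0932). Without the 2 mice farthest from the median of the first gene of a pair, r ran from 0.412 to 0.917 and 13 pairs passed, with Prx and S100b (r = 0.412) and Pmp22 and Mag (r = 0.44) no longer among them and Mag and S100b gained (r = 0.49, adjusted permutation p = 0.0443).

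Within the 12 fatigued mice r ran from 0.625 to 0.986 with a median of 0.827, and 15 of 15 pairs passed. Within the 12 sedentary mice r ran from -0.018 to 0.937 with a median of 0.6, and 4 of 15 pairs passed. Mbp and Prx held in both, with r = 0.884 in sedentary and 0.986 in fatigued mice, while Mag and S100b had -0.018 and 0.765. Whether the projects' correlations differ was not tested. Some sedentary mice departed from the shared order: sedentary control 4 ranked 4 in Prx and in Mag but 22 in Pmp22 and 21 in S100b, and sedentary control 6 ranked 3 in S100b but 24 in Mag. Without either of these mice 15 of 15 pairs passed, and without sedentary PBMT 6 only 12 did. The mice were named after their ranks were seen. Both break the order of Mag and S100b, the only pair that had not passed, so the gain is no separate result. The log2 total count had r = 0.106 with their log2 sum (rho 0.0522, and -0.235 for r without the 2 farthest mice).

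**Figure D2:**
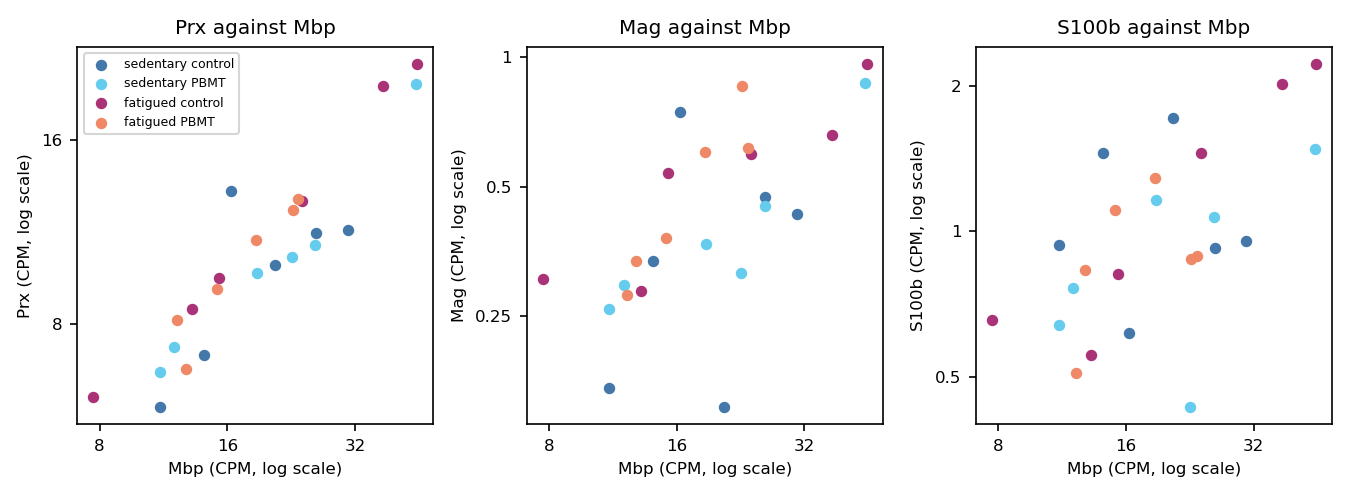
Prx, Mag and S100b against Mbp in CPM, on log axes, with 1 point per mouse colored by group. Prx follows Mbp closely (r = 0.941 after subtraction of group means), Mag less closely and S100b least (r = 0.626).

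Genes outside the 6 were ranked by their mean r with them over the 24 mice, as a description of likeness. The 10 most alike of 15102 ranked genes were mostly myelin genes. Among them Cldn19, a claudin of Schwann cell junctions, had a mean r of 0.782. Drp2, the partner of periaxin, had 0.757, Cadm4, a Schwann cell adhesion protein that faces the axon, 0.754, and Mal, a lipid raft protein, 0.744. Itgb4, a laminin receptor subunit of Schwann cells and perineurium, had 0.729. Plekha4 (0.764), Ndrg1 (0.75), whose loss causes a demyelinating neuropathy, and Sfrp5 (0.729), a secreted Wnt inhibitor, were in none of the lists. The mean r of Cldn19 was 0.714 within sedentary and 0.844 within fatigued mice, and the median mean r over all ranked genes was 0.00387. Cldn19 ran from 0.814 to 3.53 CPM with a median of 1.51 CPM, and Sfrp5 from 2.47 to 10.3 CPM with a median of 4.25 CPM. None of these 10 genes passed the adjusted threshold in any of the 5 comparisons in edgeR.

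**Figure D3:**
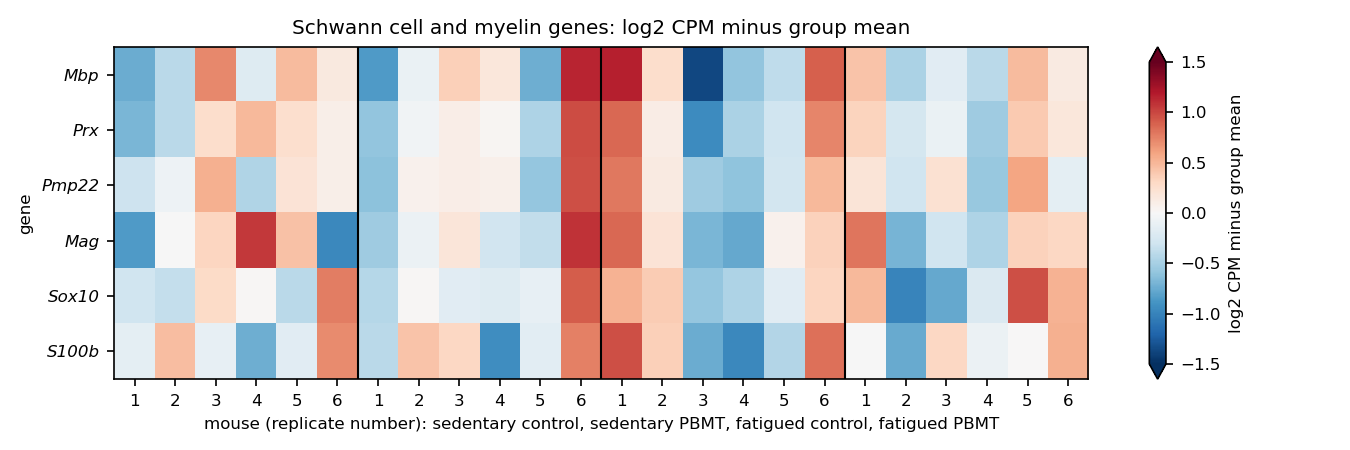
Log2 CPM minus the group mean for the 6 genes in the 24 mice by group and replicate number. Columns of sedentary PBMT 6 and fatigued control 1 are high and those of sedentary PBMT 1 and fatigued control 3 low for most genes.

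A wider list held 40 other Schwann cell and myelin genes. Of these, 16 encode myelin structure or myelin lipid enzymes, 9 are transcriptional regulators, 9 are receptors or ligands and 6 mark non-myelinating or immature Schwann cells. Per length, Gas6, a ligand of TAM receptors made by many cell types, was highest at 35.0 ± 5.01 RPKM (SD, n = 24). The regulator Nab1 had 3.83 ± 0.44 RPKM, and Cnp, an enzyme of the myelin cytoplasm, 2.33 ± 0.401 RPKM. Cadm4, Nab2, Mal, Erbb3, Zeb2 and Scn7a were also among the first 10, from 2.05 RPKM for Cadm4 to 0.704 RPKM for Scn7a. Structural genes tracked the 6 markers and the other classes did so less: the median mean r was 0.698 for 15 structural genes, 0.281 for 8 receptors and ligands, 0.204 for 4 non-myelinating genes and 0.168 for 6 regulators. The regulators differed: mean r was 0.413 for Egr2, 0.41 for Foxd3, 0.267 for Pou3f1, 0.0686 for Nab2, 0.0578 for Zeb2 and -0.343 for Nab1. Against the sum of the 6 genes, the sum of the regulators had r = -0.0347 (rho -0.11). That of the receptors and ligands had 0.424 (rho 0.343, -0.0444 within sedentary and 0.68 within fatigued mice). The sum of the non-myelinating genes had 0.414 (rho 0.323), and 0.0982 without the 2 farthest mice. Abundant genes weigh most in these sums. Nab1 (15.7 CPM) and Zeb2 (14.4 CPM) made up most of a mean regulator sum of 36.1 CPM. Gas6 (89.1 CPM) made up most of a mean receptor and ligand sum of 105 CPM.

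None of these other Schwann genes passed the threshold with light. In edgeR 0 of 32 tested passed in sedentary muscle, where 1, Zeb2, had an unadjusted p under 0.05, and 0 of 33 in fatigued muscle, where 0 did, beside 7.63% and 1.58% of all genes. For the difference between the PBMT effects 0 of 33 passed and 1, Drp2, had an unadjusted p under 0.05, beside 4.4% of all genes (log2 difference -0.73, adjusted p = 0.946). The structural genes leaned as the markers did: 11 of 14 tested were positive in sedentary muscle (median log2 fold change 0.215), and 0 of 15 in fatigued muscle (median -0.295). Of all genes 49.6% and 52.0% were positive. Their median difference between the PBMT effects was -0.413, with 15 of 15 negative, where 53.7% of all genes were positive. These genes are not independent of each other since they follow the same mice. Their sum was 153 CPM in sedentary PBMT 6, against 52.9 to 93.1 CPM in the rest of its group. It was also 153 CPM in fatigued control 1, against 47.5 to 126 CPM. The regulators had medians of 0.199 and 0.111, the receptors and ligands -0.0764 and -0.0862 and the non-myelinating genes 0.00969 and 0.111 in sedentary and fatigued muscle.

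Between fatigued and sedentary muscle some genes of the wider list passed the threshold, and 0 of its 15 structural genes tested did, beside 18.6% of all genes in control and 26.8% in PBMT mice. The genes named here are those with the smallest p, and which cells their RNA came from was not tested. L1cam, an adhesion protein of axons and non-myelinating Schwann cells, had 0.65, 0.991 and 1.26 CPM in sedentary control and 1.26, 2.09 and 3.08 CPM in fatigued control mice, and all 6 fatigued mice were above all 6 sedentary ones. Erbb2, the co-receptor through which neuregulin acts on Schwann cells, had 1.65, 2.59 and 3.4 CPM in sedentary control and 3.79, 4.01 and 4.69 CPM in fatigued control mice, also without overlap. Over all 15108 genes, every fatigued control mouse was above every sedentary one for 4.08% and below for 3.63%. Both genes were likewise separate in PBMT mice, where 5.98% of all genes were separate in this direction and 5.2% in the other, with L1cam at 0.687 to 1.23 CPM in sedentary and 1.51 to 4.32 CPM in fatigued muscle. Erbb2 had 1.9 to 2.49 CPM in sedentary PBMT and 3.17 to 5.07 CPM in fatigued PBMT mice. Erbb3, the partner of Erbb2 that binds neuregulin, went the other way, from a median of 5.05 to 3.98 CPM in control and from 4.74 to 3.74 CPM in PBMT mice, with overlap.

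In control mice 4 of 33 genes tested were called higher, where 9.1% of all genes were, and 0 lower, where 9.49% were. They were L1cam (log2 fold change 1.19, adjusted p = 0.00139), Erbb2 (0.68, adjusted p = 0.00108), the junction adhesion gene Ncam1 (0.61, adjusted p = 0.00317) and the Schwann cell ligand Dhh (1.02, adjusted p = 0.027). Erbb3 had -0.35 (adjusted p = 0.0652). The Dhh call was lost without fatigued control 1, fatigued control 2, sedentary control 3 or sedentary control 5, with adjusted p of 0.0734, 0.0509, 0.0503 and 0.0643. Dhh had a median of 0.591 CPM in sedentary control and 1.08 CPM in fatigued control mice, and 5 of 6 fatigued mice were above every sedentary one.

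In PBMT mice 5 of 33 were called higher, where 14.1% of all genes were, and 1 lower, where 12.7% were. L1cam had a log2 fold change of 1.55 (adjusted p = 5.26e-05), Erbb2 0.68 (adjusted p = 0.000763) and Nab2, a corepressor of EGR factors, 1.07 (adjusted p = 0.00152). Ncam1 had 0.42 (adjusted p = 0.0244), the sodium channel gene Scn7a 0.51 (adjusted p = 0.0277) and Erbb3, the gene called lower, -0.42 (adjusted p = 0.0188). Nab2 was highest in fatigued PBMT 5, at 11.7 CPM against 3.65 to 6.12 CPM in the rest of the group, and was still called without that mouse. The calls of Ncam1 and Scn7a were each lost without any 1 of several mice: fatigued PBMT 1, fatigued PBMT 2, sedentary PBMT 1, sedentary PBMT 3 or sedentary PBMT 4 for Ncam1 (adjusted p 0.0533, 0.0589, 0.0599, 0.0645 and 0.0547), and fatigued PBMT 5, fatigued PBMT 6, sedentary PBMT 3 or sedentary PBMT 5 for Scn7a (0.0763, 0.0615, 0.064 and 0.0713). The Scn7a call was also lost in a fit of these groups alone (0.0536), and that of Erbb3 without fatigued PBMT 4 (0.0542) or sedentary PBMT 6 (0.0568). In the edgeR test of the difference between the PBMT effects none of these 7 genes passed, with Nab2 nearest at a log2 difference of 0.63 (unadjusted p = 0.0674, adjusted p = 0.946). Most of the 7 genes followed the 6 markers only weakly from mouse to mouse. Their mean r with the markers was 0.459 for Dhh, 0.317 for Erbb3 and 0.268 for Scn7a. It was 0.14 for L1cam, 0.0966 for Erbb2, 0.0838 for Ncam1 and 0.0686 for Nab2.

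Most of the listed axon and motor neuron genes were too faint to test. Of 12 axon and motor neuron genes 3 were tested; Chat, Slc18a3 and Mnx1 had 0 counts in all 24 mice, which allows up to 0.0437 CPM in the deepest and 0.0693 CPM in the shallowest library (3 counts, counting error only). The neurofilament gene Nefl had at most 1 count in any mouse. Stmn2 and Uchl1 had means of 2.18 and 2.05 CPM, above the 1.26, 1.06 and 0.471 CPM of Sox10, S100b and Mag. The list, led by Stmn2, summed to 2.98 to 7.48 CPM, and its sum had r = 0.268 with that of the 6 genes (rho 0.198). Perineurium, the sheath of nerve fascicles, followed them more closely: its 4 genes, led by Slc2a1 with a mean of 6.51 CPM, summed to 9.21 to 22.7 CPM, with r = 0.827 (rho 0.814, 0.786 without the 2 farthest mice, 0.692 within sedentary and 0.932 within fatigued mice). The list holds Itgb4, which Schwann cells also express, and the mean r with the 6 genes was 0.729 for Itgb4, 0.539 for Cldn1 and 0.457 for Slc2a1 (0.0222 within sedentary mice). Slc2a1, which also serves muscle fibers, was called higher in fatigued muscle in edgeR. Its log2 fold change was 0.54 in control (adjusted p = 0.00993) and 0.99 in PBMT mice (adjusted p = 1.51e-05). Melanocyte and oligodendrocyte genes were nearly absent. Melanocyte genes, of a lineage that also needs SOX10, summed to at most 0.195 CPM with Tyr at 0 in all mice and Pmel the most abundant. Oligodendrocyte genes, of the glia that make central myelin, summed to at most 0.198 CPM, led by Cldn11, with Olig1 and Olig2 at 0 in all mice.

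Other cell types did vary between mice. Fibroblast genes (7, led by Col1a2) summed to 692 to 4620 CPM, and tendon genes (6, led by Fmod) to 107 to 867 CPM, both highest in fatigued PBMT 5. Their sums had r = 0.374 (rho 0.231, 0.205 without the 2 farthest mice) and 0.462 (rho 0.388, -0.0158 within sedentary and 0.684 within fatigued mice) with the sum of the 6 markers. Adipocyte genes (7, led by Fabp4) summed to 196 to 390 CPM, with r = 0.304 (rho 0.299, -0.0385 within sedentary and 0.561 within fatigued mice). Endothelial genes (5, led by Cdh5) summed to 192 to 354 CPM, with r = -0.421 (rho -0.437, -0.157 without the 2 farthest mice), and smooth muscle and pericyte genes (5, led by Rgs5) to 478 to 735 CPM, with r = -0.0953 (0.249 without the 2 farthest mice, -0.177 within sedentary and 0.0508 within fatigued mice). Macrophage genes (5, led by Mrc1) summed to 15.1 to 87.1 CPM, with r = 0.079, erythrocyte genes (5, led by Hbb-bs) to 35.5 to 156 CPM, with r = 0.251 (-0.326 within sedentary and 0.626 within fatigued mice), and lymphocyte genes (5, led by Cd79a) to at most 0.473 CPM. Skin keratinocyte genes (6, led by Krt10) summed to 1.16 to 27.9 CPM, highest in sedentary PBMT 4, with r = 0.0993 (0.368 without the 2 farthest mice, 0.0756 within sedentary and 0.197 within fatigued mice), and the muscle fiber sum had r = 0.0695. Their part in the results on the 6 markers was not tested.

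Of the 88 genes in the 14 lists of other cell types, 57 were tested, and 0 were called in either PBMT comparison or in their difference, where 4, 0 and 2 had an unadjusted p under 0.05, beside 7.63%, 1.58% and 4.4% of all genes. In control mice 9 of 57 were called higher in fatigued muscle, where 9.1% of all genes were, and 0 lower, where 9.49% were. The 9 were Slc2a1 of perineurium, Thbs4 of tendon, Acta2 and Myh11 of smooth muscle, Cd163 of macrophages, and Ckm, Acta1, Myh4 and Tnnt3 of muscle fibers. In PBMT mice 22 of 57 were called higher, where 14.1% of all genes were, and 2 lower, where 12.7% were. The higher ones included 6 of 7 fibroblast, 5 of 5 macrophage, 3 of 6 tendon (Fmod, Thbs4, Comp), 3 of 10 muscle fiber (Acta1, Myh4, Tnnt3) and 2 of 5 smooth muscle genes (Acta2, Myh11), with Slc2a1, Cidec of adipocytes and Pecam1 of endothelium. The lower ones were Krt10 and the endothelial gene Emcn. Genes of these lists other than the most abundant of each were named after their values were seen.

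Promoters of the 6 genes were compared because the genes moved together across mice. RefSeq promoters (build GRCm38.p6) were found for 4 of the 6 genes, Prx, Pmp22, Mag and S100b, with 9 promoters in all, and for Mbp and Sox10 none was found. The 250 bases before each start were searched on both strands for the SOX motifs ACAAAG and ACAATG and the EGR motifs GCGTGGGCG and GCGGGGGCG. Either SOX motif was in 25.2% and either EGR motif in 3.06% of 32851 promoters. Among the 9 promoters, 2 held a SOX motif and 0 held an EGR motif. Both were overlapping promoters of Mag that share the same single site. Of the 10 genes most like the markers, 5 had promoters, 7 in all, with 1 SOX match, in Cadm4, and 1 EGR match, in Plekha4. A match describes the letters only. The first promoter of Prx (chr7:27499074-27499323, plus strand), of Pmp22 (chr11:63128732-63128981, plus strand) and of S100b (chr10:76253586-76253835, plus strand), the second of Mag (chr7:30914923-30915172, minus strand) and that of Cadm4 (chr7:24481773-24482022, plus strand) are given 5′ to 3′ with the motif in capitals, to show a compact-myelin, an outer-membrane, an inner-membrane and an identity gene beside a gene that varied like them. The match begins 67 bases before the start in Mag, as CTTTGT, the reverse complement of ACAAAG, and 121 bases before it in Cadm4, as CATTGT, the reverse complement of ACAATG.
Pmp22: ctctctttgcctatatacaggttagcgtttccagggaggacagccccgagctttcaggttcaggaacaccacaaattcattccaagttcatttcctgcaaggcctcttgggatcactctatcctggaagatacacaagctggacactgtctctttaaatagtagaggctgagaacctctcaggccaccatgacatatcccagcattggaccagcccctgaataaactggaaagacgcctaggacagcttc
Prx: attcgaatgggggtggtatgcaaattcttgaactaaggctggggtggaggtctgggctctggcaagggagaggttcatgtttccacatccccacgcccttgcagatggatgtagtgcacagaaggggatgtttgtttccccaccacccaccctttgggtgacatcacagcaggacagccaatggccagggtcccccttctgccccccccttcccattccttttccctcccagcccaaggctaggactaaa
Mag: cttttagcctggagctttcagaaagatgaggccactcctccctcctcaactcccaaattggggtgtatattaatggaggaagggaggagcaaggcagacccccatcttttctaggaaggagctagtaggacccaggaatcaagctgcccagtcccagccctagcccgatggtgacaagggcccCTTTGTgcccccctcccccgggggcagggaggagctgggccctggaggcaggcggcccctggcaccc
S100b: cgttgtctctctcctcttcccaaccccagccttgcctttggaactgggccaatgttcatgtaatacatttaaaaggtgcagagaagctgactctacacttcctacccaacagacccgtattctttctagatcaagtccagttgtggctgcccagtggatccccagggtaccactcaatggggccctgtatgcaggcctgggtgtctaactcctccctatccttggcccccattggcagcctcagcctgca
Cadm4: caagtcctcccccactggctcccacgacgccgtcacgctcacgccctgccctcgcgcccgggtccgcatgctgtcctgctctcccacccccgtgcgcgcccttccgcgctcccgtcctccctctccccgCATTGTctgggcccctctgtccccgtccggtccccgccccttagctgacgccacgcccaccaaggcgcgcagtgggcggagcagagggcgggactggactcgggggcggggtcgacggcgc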

How the data were processed

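The deposited values are counts per Ensembl gene for each of 24 mice, with no normalization. Per the submitters' processing notes, Trimmomatic, STAR 2.7.1a, Picard 2.20.4, StringTie 2.0.4, featureCounts 1.6.0, HTSeq and the build GRCm38 were used. The notes do not state which tool counted, the strand setting, or whether reads or read pairs were counted. Of 55487 identifiers, 55227 matched GENCODE M21. PBMT and control were compared within each project, and fatigued and sedentary mice and the difference of effects over all 24, by edgeR 4.0.16 (TMM, filterByExpr, robust quasi-likelihood) in R 4.3.3, with p adjusted by Benjamini-Hochberg across every gene in the fit. Intervals (95%) come from the F statistic. DESeq2 1.42.0 and limma 3.58.1 were alternatives, with other scaling, filters, a length trend, a replicate block and single mice left out. CPM used TMM factors of all 24 mice, and log2 CPM a prior count of 2. Correlations used 100000 permutations within groups. Genes named were the 6 markers, the 10 other Schwann genes with the highest RPKM, the other Schwann genes with the 5 smallest p in each fatigued against sedentary comparison, the most abundant and absent genes of each list, and the 10 genes most alike. The regulators ranked for likeness were named as well. The fits were tested on simulated data. The markers and lists were chosen with earlier results of these data known.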

Additional observations from a re-analysis of the deposited data

Results flagged for a closer look

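Each group of 6 mice was checked for 1 mouse far from the rest, by its gap to the nearest other mouse as a share of the group's range, with 0.625 as the 95% critical value. Of 148 groups checked, 19 had such a mouse. For independent, normally distributed values about 1 in 20 would be flagged. The checks here share mice, and some sums contain genes that were also checked singly, so their number cannot be read against that rate. Sedentary PBMT 6 was high in 4 of the 6 markers: Prx (share 0.687, 19.8 CPM against 6.69 to 10.8 CPM), Pmp22 (0.681, 63.2 against 21.1 to 34.6 CPM), Mag (0.688, 0.869 against 0.26 to 0.451 CPM) and Sox10 (0.76, 2.03 against 0.781 to 1.08 CPM). It was also high in the summed markers (0.639) and in the summed 40 other Schwann genes (0.666).

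Fatigued PBMT 5 was high in Nab2 (0.695), Erbb2 (0.684), the summed other Schwann genes (0.646), the summed receptors and ligands (0.659), the fibroblast sum (0.643) and the tendon sum (0.686). Sedentary control 4 was high in Gas6 (0.688, 116 against 84.5 to 94.5 CPM), the summed receptors and ligands (0.707) and the muscle fiber sum (0.703). Keratinocyte genes were high in sedentary control 3 (0.664), sedentary PBMT 4 (0.682, 27.9 against 1.61 to 9.99 CPM) and fatigued control 2 (0.788). Adipocyte genes were high in sedentary PBMT 2 (0.711, 326 against 204 to 239 CPM). The causes were not tested.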

How the results depend on the processing

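None of the 6 markers passed the threshold in any comparison under any alternative; the lowest adjusted p of a marker with 1 mouse left out was 0.101. With at least 10 counts required in every sample, 5 of the 6 had a value in sedentary muscle and over all 24 mice. DESeq2 size factors in edgeR moved the median of all genes by at most 0.0061 (log2), and removing the length trend by at most 0.0123. All but 1 of the sign changes came with single mice left out. In sedentary muscle they ran from -0.1229 to 0.3592 (Mbp), -0.1199 to 0.2478 (Prx), -0.1696 to 0.2103 (Pmp22), -0.1791 to 0.449 (Mag) and -0.07905 to 0.3758 (Sox10). In fatigued muscle they ran from -0.298 to 0.03586 (Pmp22), -0.3287 to 0.103 (Mag) and -0.3166 to 0.07973 (Sox10). For fatigued against sedentary muscle they ran from -0.02388 to 0.4509 (Mbp) and -0.005525 to 0.3956 (S100b) in control mice, and from -0.06105 to 0.3462 (Pmp22), -0.2041 to 0.1657 (Prx) and -0.1523 to 0.1804 (S100b) in PBMT mice. For the difference of the PBMT effects they ran from -0.3843 to 0.01141 (Pmp22) and -0.5786 to 0.05023 (Mag).

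Of all genes, 4 were called in sedentary muscle, 16 with no filter, 60 by DESeq2, 12 with the length trend removed and 1 (Nfil3) with all 24 mice in 1 model. With 1 mouse left out this count ran from 2 (Ccn1 and Nfil3, without sedentary control 1, 2 or 6) to 20 (without sedentary PBMT 5), with 18 without sedentary control 4, 10 without sedentary PBMT 2 and 7 without sedentary PBMT 4. In fatigued muscle it was 2 by DESeq2 (Trp63, Dusp2) and stayed at 0 with 1 mouse left out. For the difference of effects it ran from 1 to 3, with Rps4l and Hpcal1 added without sedentary PBMT 2. With 1 mouse left out, counts for fatigued against sedentary muscle ran from 2078 to 3770 in control and from 3245 to 4078 in PBMT mice. The cause was not tested.

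Between control and PBMT mice of the same number, r ran from -0.0715 to 0.0664 in sedentary muscle, with 0 of 6 over 0.1 and 1 of 6 best with its own number. In fatigued muscle it ran from -0.0846 to 0.325, with 4 of 6 over 0.1 and 3 of 6 best with their own number, and whether the numbers pair mice there is not known. With the replicate block, 11 genes were called in sedentary and 1 (Trp63) in fatigued muscle, and S100b in PBMT mice turned to 0.0706.

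For pairs of markers past the threshold, 14 became 4 in sedentary mice alone, where Mag and S100b had r = -0.018, and ran from 12 to 15 with 1 mouse left out. Without sedentary control 4 and fatigued PBMT 5, an alternative chosen after seeing the data, 15 pairs passed. The order of levels held with longest transcripts, and the range of the markers' sum was 3.25-fold in RPKM.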
